A study of Mus musculus with 2 samples.

Results

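The 7 genes described here belong to the vascular endothelial growth factor (VEGF) family and were taken by symbol from the 32285 genes counted in the vomeronasal organ (VNO). There are 4 ligands, *Vegfa*, *Vegfb*, *Vegfc* and *Pgf*, and 3 receptors, *Kdr*, *Flt1* and *Flt4*, and none was chosen for its values. They were followed across sustentacular, neutrophil, macrophage, stromal and endothelial cells. The VNO is a blind tube in the nasal septum that detects pheromones and holds a large blood vessel. Both libraries came from wild-type male mice of the strain C57 BL/6J at postnatal day 60, without any allele or treatment that differed between them. In all, 5 organs were dissociated with papain and collagenase, and the cells were frozen and then thawed for droplet-based (10x Genomics) single-cell sequencing. No source used here tells how the mice were divided between the 2 libraries, so p-values measure only the spread between these libraries, which may be technical.

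VEGF ligands are secreted proteins that act on receptor tyrosine kinases of the endothelium, the cells that line blood and lymph vessels. *Vegfa* drives vessel growth and permeability through *Kdr*, its main signalling receptor, and also binds *Flt1*, which has a weak kinase activity and a soluble form that traps ligand. *Vegfb* and *Pgf* (placental growth factor) bind *Flt1*, and *Vegfc* acts through *Flt4*, the receptor of lymphatic endothelium. *Vegfa* is a classical target of the hypoxia-inducible factors. UMI counts per gene do not separate the splice forms of these genes, such as soluble and membrane-bound *Flt1*.

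The sequence upstream of transcript starts was read from RefSeq (GRCm38.p6, 250 bases, 5′ to 3′ on the strand of the gene) and searched on both strands for CCGGAA, a core bound by ETS factors, for ACGTG, a core of hypoxia response elements, for GCGTG, another such core, and for the core promoter element TATAAA. All 7 genes had an entry, and *Vegfa* and *Pgf* had 2 each. RefSeq starts can differ from the gene bounds of GENCODE given below: the *Flt4* window, both *Pgf* windows and the second *Vegfa* window lie inside those bounds. Of 32851 promoters of this length, 12% held CCGGAA, 16.6% held ACGTG, 28.2% held GCGTG and 12.4% held TATAAA. The windows of *Kdr* (chr5:75978456-75978705, reverse strand) and *Flt1* (chr5:147726012-147726261, reverse strand) are shown because both genes were highest in endothelium in the results that follow, and that of *Flt4* (chr11:49609429-49609678, forward strand) because its highest level was in lymphatic cells. Capitals mark matches on either strand.
Kdr: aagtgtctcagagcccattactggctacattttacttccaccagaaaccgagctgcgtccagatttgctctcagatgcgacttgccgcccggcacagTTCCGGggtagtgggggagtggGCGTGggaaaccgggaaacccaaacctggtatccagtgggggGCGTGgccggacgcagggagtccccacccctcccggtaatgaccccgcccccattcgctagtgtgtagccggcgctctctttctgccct
Flt1: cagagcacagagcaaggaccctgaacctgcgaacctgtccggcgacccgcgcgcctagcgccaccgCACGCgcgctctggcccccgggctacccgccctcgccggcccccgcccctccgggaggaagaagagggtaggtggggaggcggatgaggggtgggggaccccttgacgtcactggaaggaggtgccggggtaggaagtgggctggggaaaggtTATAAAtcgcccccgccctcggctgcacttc
Flt4: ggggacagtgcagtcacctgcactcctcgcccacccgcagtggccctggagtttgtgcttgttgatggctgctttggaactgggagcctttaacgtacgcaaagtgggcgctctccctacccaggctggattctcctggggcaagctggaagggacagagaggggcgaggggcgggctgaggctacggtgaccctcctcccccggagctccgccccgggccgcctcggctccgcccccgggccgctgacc
The *Kdr* window held CCGGAA 1 time and GCGTG 2 times, and the *Flt1* window held GCGTG 1 time and TATAAA 1 time. No letters of the search matched in the *Flt4* window. For *Vegfa*, the second window (chr17:46025164-46025413, reverse strand), which lies within the gene at a start far downstream of the first, held ACGTG 1 time and also GCGTG 1 time, and the first held no match. The *Vegfb* window held GCGTG 2 times and the first *Pgf* window 1 time. The *Vegfc* window and the second *Pgf* window held no match. Such matches describe the letters and are not bound sites, and in the windows printed none of the matches overlapped.

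The libraries held 12814 and 11270 barcodes with 108005626 and 95442231 unique molecular identifiers (UMIs, each marking 1 captured mRNA molecule). After the filter of the study (200 to 9000 genes and at most 5% mitochondrial UMIs) 5694 and 4898 cells remained, 10592 in all, with 172 of them called doublets. Cells were clustered without the 7 genes and without the pathway and hypoxia genes listed below, and 18 cell classes were named from fixed marker lists, each with the ending "-like". The classes used here were sustentacular-like (283 cells, median 11227 UMIs per cell), neutrophil-like (753 cells, 1593 UMIs), macrophage-like (1686 cells, 4510.5 UMIs), fibroblast-like (562 cells, 7424.5 UMIs) and endothelial-like cells (744 cells, 5436.5 UMIs). Lymphatic endothelial-like cells (36 cells) formed a class of their own. Levels are CPM, the count of a gene over all UMIs of a class in a library scaled to 1000000, given as mean ± SD over the 2 libraries. Levels of different genes are not compared, because capture can differ between genes.

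Defining markers were checked in each class. *Pecam1*, a junction protein of endothelium, had a UMI in 84.1% of endothelial-like cells, *S100a8* in 93.2% of neutrophil-like cells, *C1qa* in 95.5% of macrophage-like cells and *Fezf2* in 92.2% of sustentacular-like cells. The sustentacular name rested on 3 raised markers of 8 (*Fezf2*, *Cyp2a5*, *Sox2*), and *Cyp1a2* of that list was at 0. More markers of the non-sensory epithelium list were raised in that cluster, 5 of 7. No cluster was named mural, that is, smooth muscle or pericyte. Both clusters named fibroblast-like also carried mural markers. In the one led by *Mfap5* and *Dpt* (387 cells), 12 of 14 mural markers were raised beside 8 of 9 fibroblast markers. In the one led by *Cytl1* and *Cemip* (175 cells), 6 mural markers were raised beside 8 of 9 fibroblast markers. In the fibroblast-like cells, *Acta2* and *Tagln* had a UMI in 67.6% and 79.2% of cells, and the fibroblast genes *Dcn* and *Col1a2* in 95.6% and 97.9%. Other mural markers were found in fewer of these cells, *Myh11* in 14.2%, *Kcnj8* in 4.98%, *Abcc9* in 4.45% and *Higd1b* in 0.89%. The 14 mural markers summed to 10487 and 8969 CPM there, and the 9 fibroblast markers to 28758 and 29640 CPM. Of the mural sum, *Acta2* gave 3861 and 3130 CPM and *Tagln* 4528 and 4170 CPM. The pericyte gene *Rgs5* was found in 8 of 562 cells, 6 of which held 3 or more UMIs (84.6 and 104 CPM). The fibroblast-like class, which held both kinds of marker, takes the place of mural cells below. Mural cells were not separated from fibroblasts in it, and the VEGF genes of mural cells as such were not analysed here. The sustentacular-like class held some RNA of other types, unequally in the 2 libraries: the 11 macrophage markers summed to 2214 and 503 CPM, and the 11 neutrophil markers to 115 and 936 CPM with 3 of them (*Cxcr2*, *Camp*, *Ngp*) at 0. In the neutrophil-like class itself the 11 neutrophil markers summed to 44365 and 61569 CPM. Markers of other types were also counted in other classes. The 11 macrophage markers summed to 6694 and 6567 CPM in endothelial-like and to 6562 and 6171 CPM in fibroblast-like cells. In macrophage-like cells they summed to 95872 and 91489 CPM. The 10 endothelial markers summed to 8418 and 7647 CPM in endothelial-like cells, and the 9 fibroblast markers to 732 and 598 CPM in neutrophil-like cells. A cluster of 111 cells that came from library 1 alone held genes of smooth muscle beside those of other types and entered no class.

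The ligands were found in different classes, and the receptors mainly in endothelium. *Vegfa* was highest in neutrophil-like and sustentacular-like cells, *Vegfc* in fibroblast-like cells, *Pgf* in lymphatic endothelial-like and fibroblast-like cells, and *Vegfb* was present in most classes. *Kdr* was high in both kinds of endothelium, *Flt1* in endothelial-like cells and *Flt4* in lymphatic endothelial-like cells.

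**Figure D1:**
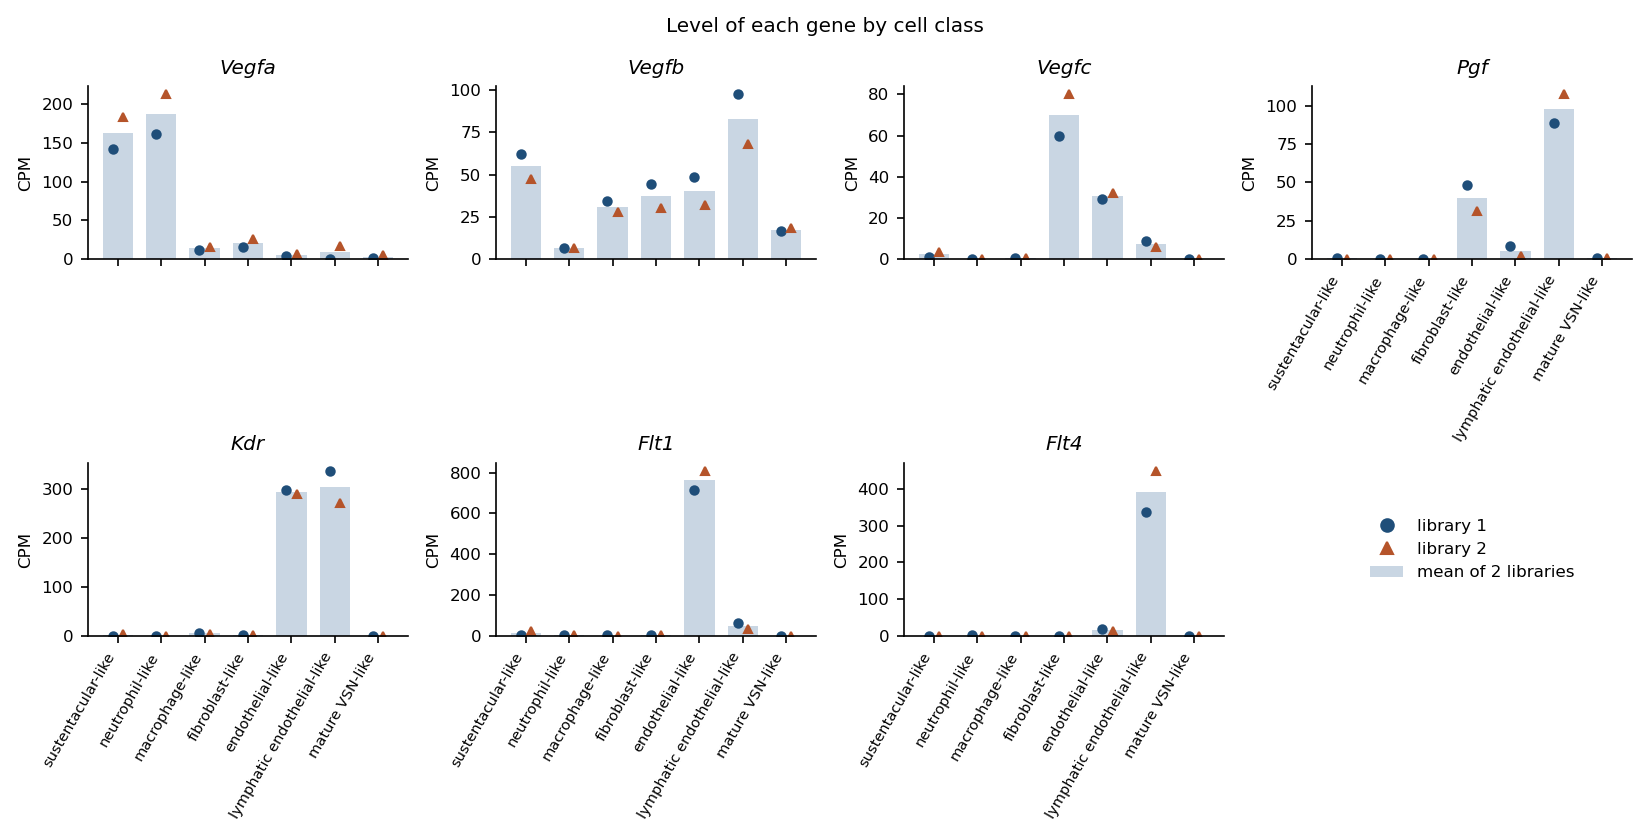
Level of each gene (CPM, linear axes that differ between panels) in 7 cell classes. Bars are means of the 2 libraries, circles library 1 and triangles library 2. Vegfa stands at 142 and 183 CPM in sustentacular-like and at 161 and 213 CPM in neutrophil-like cells, while Kdr and Flt1 stand highest in endothelium.

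Among the ligands, *Vegfa* (ENSMUSG00000023951, chr17:46016993-46032369, reverse strand, GRCm38) reached 161 and 213 CPM in neutrophil-like cells of libraries 1 and 2, from 104 and 126 UMIs, a mean of 187 ± 36.5 CPM. In sustentacular-like cells it stood at 142 and 183 CPM, from 259 and 312 UMIs (162 ± 29.3 CPM). The ranges of these classes overlapped. Far lower levels were counted in fibroblast-like cells (15.7 and 25.2 CPM), macrophage-like cells (11 and 16 CPM) and endothelial-like cells (3.97 and 6.50 CPM). In mature vomeronasal sensory neuron (VSN)-like cells, which serve as a background, it was 1.07 and 4.66 CPM. Of 753 neutrophil-like cells, 107 held 1 *Vegfa* UMI, 50 held 2 to 4 and 2 held 5 or more, so the level did not come from a few cells. Of 283 sustentacular-like cells, 206 held a UMI and 28 held 5 or more, with 14 the highest in a cell.

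Outside these 5 classes, *Vegfa* was also counted in non-sensory epithelial-like (63.2 and 69.4 CPM), basal-like (51.5 and 74.3 CPM) and monocyte-like cells (70.8 and 41.2 CPM, 34 UMIs). The order over the 18 named classes thus began with neutrophil-like, sustentacular-like, non-sensory epithelial-like, basal-like and monocyte-like cells. Gland-like cells stood at rank 12 (10.6 and 16.3 CPM), endothelial-like cells at rank 17 and mature VSN-like cells at rank 18. Unnamed clusters were not ranked, and one of 693 cells led by *Ovol3* and *Gnb3* held *Vegfa* at 70.2 and 62.8 CPM (107 UMIs).

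Cells differed in depth, and a share of cells with a UMI rises with depth, so 1000 UMIs were drawn from each cell and shallower cells left out. Before thinning, 72.8% of sustentacular-like and 21.1% of neutrophil-like cells held *Vegfa*. After it, the shares were 13.8% (95% exact binomial interval 9.99 to 18.4%, 283 cells) and 14.9% (12.3 to 17.8%, 673 of 753 cells). The intervals overlapped. In fibroblast-like cells the thinned share was 2.55%, in macrophage-like cells 1.09%, in endothelial-like cells 1.00% and in mature VSN-like cells 0%, where 0 of 705 cells allow a share of cells with a UMI of up to 0.426% (3 of 705). Intervals and such floors cover counting error only.

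*Vegfb* (ENSMUSG00000024962, chr19:6982473-6987651, reverse strand) was counted in all 5 classes. It stood at 62.3 and 47.5 CPM in sustentacular-like, 48.4 and 32.1 CPM in endothelial-like, 44.6 and 30.3 CPM in fibroblast-like and 34.4 and 27.7 CPM in macrophage-like cells. Neighbours in this order overlapped, while both libraries of sustentacular-like cells lay above both of fibroblast-like cells. In neutrophil-like cells it was 6.20 and 6.76 CPM, from 4 UMIs in each library, below every other class compared. The highest means over all classes were in lymphatic endothelial-like (82.8 ± 20.9 CPM, 23 UMIs) and olfactory ensheathing-like cells (76.1 CPM, 37 UMIs), the glia of the vomeronasal nerve.

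*Vegfc* (ENSMUSG00000031520, chr8:54077606-54187096, forward strand) was highest in fibroblast-like cells, at 59.9 and 80.1 CPM, with a UMI in 34.7% of cells. Endothelial-like cells followed at 28.9 and 32.1 CPM and 16.7% of cells, without overlap. Lymphatic endothelial-like cells held 2 UMIs, sustentacular-like cells 8, macrophage-like cells 3 and neutrophil-like cells 0, and 0 of 753 cells allow a share of cells with a UMI of up to 0.398% (3 of 753).

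*Pgf* (ENSMUSG00000004791, chr12:85166635-85177790, reverse strand) stood at 88.8 and 108 CPM in lymphatic endothelial-like cells (98.3 ± 13.4 CPM), from 10 and 19 UMIs in 11 of 36 cells. Fibroblast-like cells held 48.2 and 31.3 CPM in 73 of 562 cells. That level was uneven: 1 cell held 45 of the 184 UMIs, and 3 cells together 35.3%. Olfactory ensheathing-like cells held 23.1 and 29.5 CPM, from 13 UMIs. In endothelial-like cells 26 UMIs were found in 7 cells, 16 of them in 1 cell of library 1 (8.33 and 1.81 CPM). Neutrophil-like and macrophage-like cells held none and sustentacular-like cells 1 UMI.

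**Figure D2:**
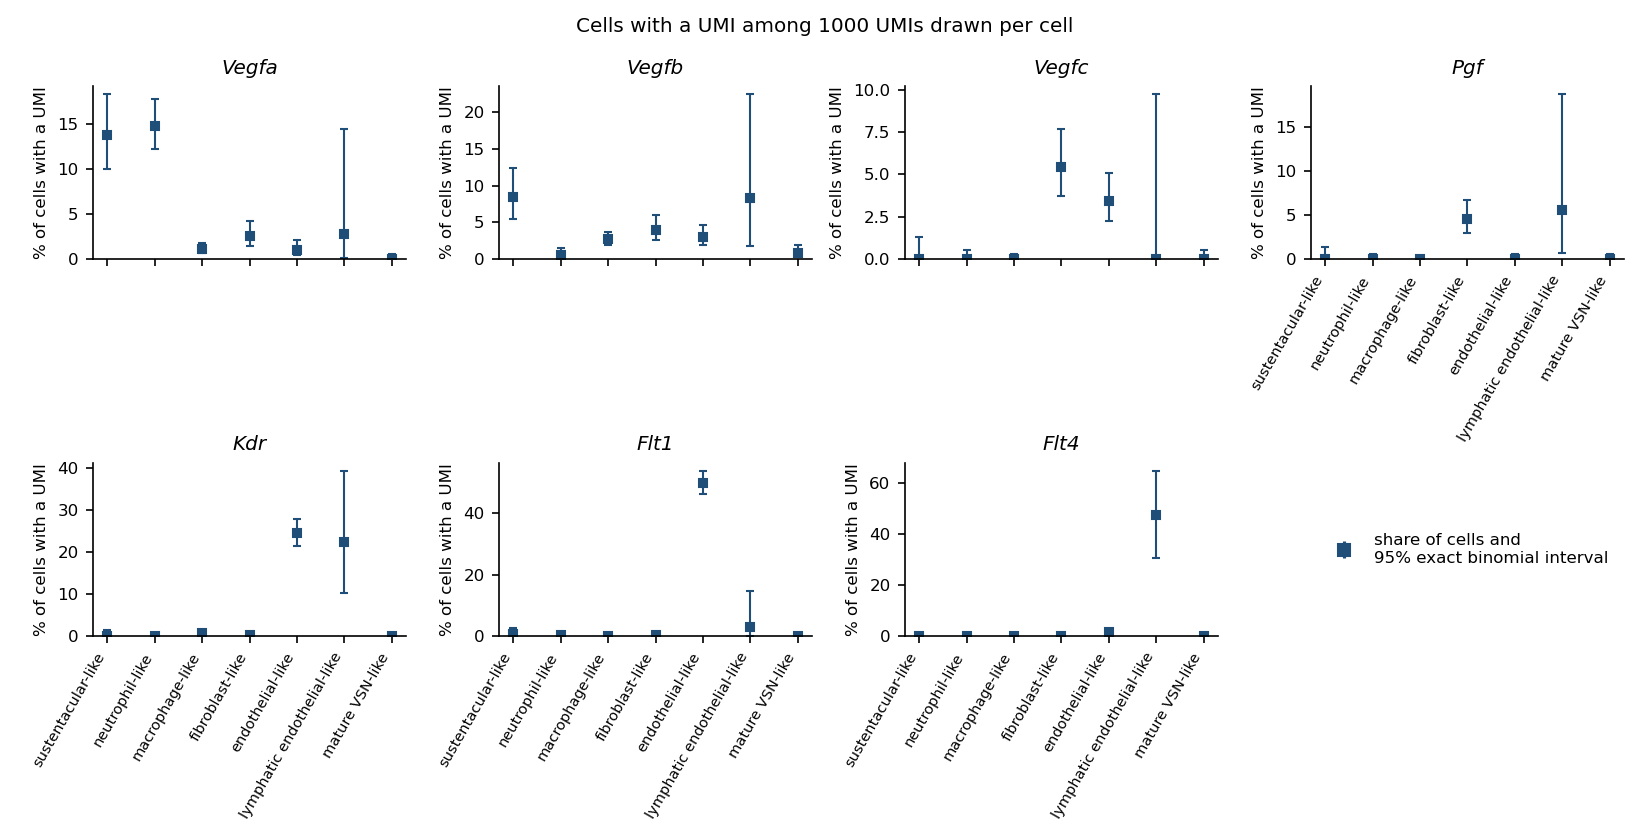
Share of cells (percent) with at least 1 UMI of each gene when 1000 UMIs were drawn per cell, by class, with 95% exact binomial intervals that cover counting error only. Vegfa is at 13.8% in sustentacular-like and 14.9% in neutrophil-like cells, and Flt4 at 47.2% in lymphatic endothelial-like against 1.43% in endothelial-like cells.

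Among the receptors, *Kdr* (ENSMUSG00000062960, chr5:75932827-75978458, reverse strand) was counted at 299.8 and 291 CPM in endothelial-like cells (295 ± 6.45 CPM, 1561 UMIs) and at 337 and 272 CPM in lymphatic endothelial-like cells (305 ± 46.0 CPM, 86 UMIs). These levels overlapped. A UMI was present in 69.6% and 69.4% of the cells, and in 24.5% and 22.2% after thinning. Macrophage-like cells held 37 *Kdr* UMIs in 36 of 1686 cells (5.37 and 4.61 CPM, 2.14% of cells). In mature VSN-like cells, which were deeper, the share was 0.142%. Fibroblast-like cells held 8 UMIs, sustentacular-like cells 5 UMIs in 2 cells and neutrophil-like cells 0.

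*Flt1* (ENSMUSG00000029648, chr5:147561604-147726011, reverse strand) was counted at 717 and 807 CPM in endothelial-like cells (762 ± 63.4 CPM), with a UMI in 85.6% of cells and in 49.9% after thinning. The median positive cell held 5 UMIs and the highest 62. In lymphatic endothelial-like cells it was 62.1 and 34.0 CPM, from 13 UMIs in 3 of 36 cells. Monocyte-like cells, at 57.2 and 66.9 CPM and in 24 of 120 cells (34 UMIs), were the next class after endothelial-like cells, and their range overlapped that of lymphatic cells. The other myeloid classes were far lower, with 15 UMIs in macrophage-like (2.95 and 1.08 CPM) and 4 in neutrophil-like cells. In sustentacular-like cells 30 of 43 *Flt1* UMIs were in 1 cell, and the level was 2.73 CPM in library 1 and 22.3 CPM in library 2. The 10 endothelial markers in that class moved the same way, from 7.11 to 63.4 CPM, and their part in the *Flt1* level was not tested.

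*Flt4* (ENSMUSG00000020357, chr11:49609263-49652739, forward strand) was counted at 337 and 448 CPM in lymphatic endothelial-like cells (393 ± 78.3 CPM), in 88.9% of cells and in 47.2% after thinning. Endothelial-like cells held 19 and 13 CPM, from 84 UMIs in 74 of 744 cells, 66 of which held a single UMI. Neutrophil-like, sustentacular-like and fibroblast-like cells held 1 UMI each and macrophage-like cells 0. *Prox1*, the transcription factor that specifies lymphatic identity, had a UMI in 91.7% of lymphatic endothelial-like and 15.1% of endothelial-like cells.

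Within endothelial-like cells, 489 of 744 held UMIs of both *Kdr* and *Flt1*, 29 *Kdr* alone, 148 *Flt1* alone and 78 neither. *Flt1* was found in 94.4% of cells with *Kdr* and in 65.5% of those without. After thinning, these shares were 56.7% and 47.6%, and deeper cells are more likely to show any gene.

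The first comparison set the endothelium against stromal cells. All 3 receptors were higher in endothelial-like than in fibroblast-like cells, and 3 of the 4 ligands were lower. *Kdr*, at 295 against 1.75 CPM, was higher by 7.34 ± 0.31 (log2 fold change ± SE, edgeR's quasi-likelihood test on UMIs summed per library and class, n = 2 libraries per class, adjusted p = 3.70e-13). *Flt1*, at 762 against 4.39 CPM, was higher by 7.48 ± 0.39 (adjusted p = 3.33e-12). For *Flt4*, 84 UMIs stood against 1 (adjusted p = 3.31e-06), a ratio of CPM of 71.5 with a counting interval of 12.5 to 2856. *Vegfa* was lower in endothelial-like cells by 1.89 ± 0.33 on the log2 scale (adjusted p = 0.000113), *Vegfc* by 1.17 ± 0.20 (adjusted p = 9.19e-05) and *Pgf* by 2.99 ± 0.43 (adjusted p = 1.49e-05). *Vegfb* did not pass the test (0.09 ± 0.24, adjusted p = 0.829), and its CPM ratio was 1.04 with a counting interval of 0.845 to 1.28. With a mitochondrial limit of 10% in place of 5%, *Vegfb* was lower in endothelial-like cells (-0.73, adjusted p = 0.00992). Thus 6 of 7 genes passed, and of all 15451 genes tested 36.2% did (16.8% higher and 19.4% lower). All 6 passed in each of the 18 other ways of processing the data, and the levels within fibroblast-like cells are given without a test. The cluster led by *Mfap5* and *Dpt* (387 cells) held 61.1 ± 19.7 CPM of *Pgf* and the one led by *Cytl1* and *Cemip* (175 cells) 3.00 ± 0.193 CPM, whereas *Vegfc* stood at 59.6 and 87.7 CPM and *Vegfa* at 23.6 and 14.9 CPM in the same order.

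Of 25 other genes of the VEGF pathway and of neighbouring angiogenic pathways, 16 were higher in endothelial-like than in fibroblast-like cells and 5 lower, with a median log2 fold change of 1.75 against 0 over all genes. The co-receptors *Nrp1* (1.53 ± 0.16, adjusted p = 1.26e-07) and *Nrp2* (0.91 ± 0.14, adjusted p = 2.60e-05) were higher, although neither was near absent in fibroblast-like cells, at 88.7 and 179 CPM. The largest increases were of *Tek* (9.29 ± 0.42, with 936 UMIs against 1) and *Tie1* (7.54 ± 0.31), the receptors of the angiopoietin pathway, and of *Ptprb* (7.15 ± 0.32), the phosphatase that acts on *Tek*. The largest decreases were of *Pdgfrb* (-7.70 ± 0.30) and *Pdgfra* (-7.61 ± 0.30), receptors of platelet-derived growth factors, and of *Angpt1* (-2.99 ± 0.52), the ligand of *Tek*. *Vegfd*, which binds *Flt4*, was lower by 2.95 ± 0.39, at 1.59 and 6.14 CPM against 30.9 and 31.3 CPM.

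The hypoxia list of 23 genes was mixed: 7 were higher and 5 lower, with a median of -0.04. Its members that passed included *Epas1*, the hypoxia-inducible factor abundant in endothelium (2.54 ± 0.18, 427 against 73.7 CPM), *Ndrg1* (2.80 ± 0.18) and the glycolytic regulator *Pfkfb3* (2.06 ± 0.22), which were higher. The hexokinase *Hk2* (-3.24 ± 0.34), *Arnt* (-0.89 ± 0.27), the partner of both factors, and *P4ha1* (-0.70 ± 0.20) were lower. *Hif1a* was higher by 0.44 ± 0.16 (adjusted p = 0.0404).

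**Figure D3:**
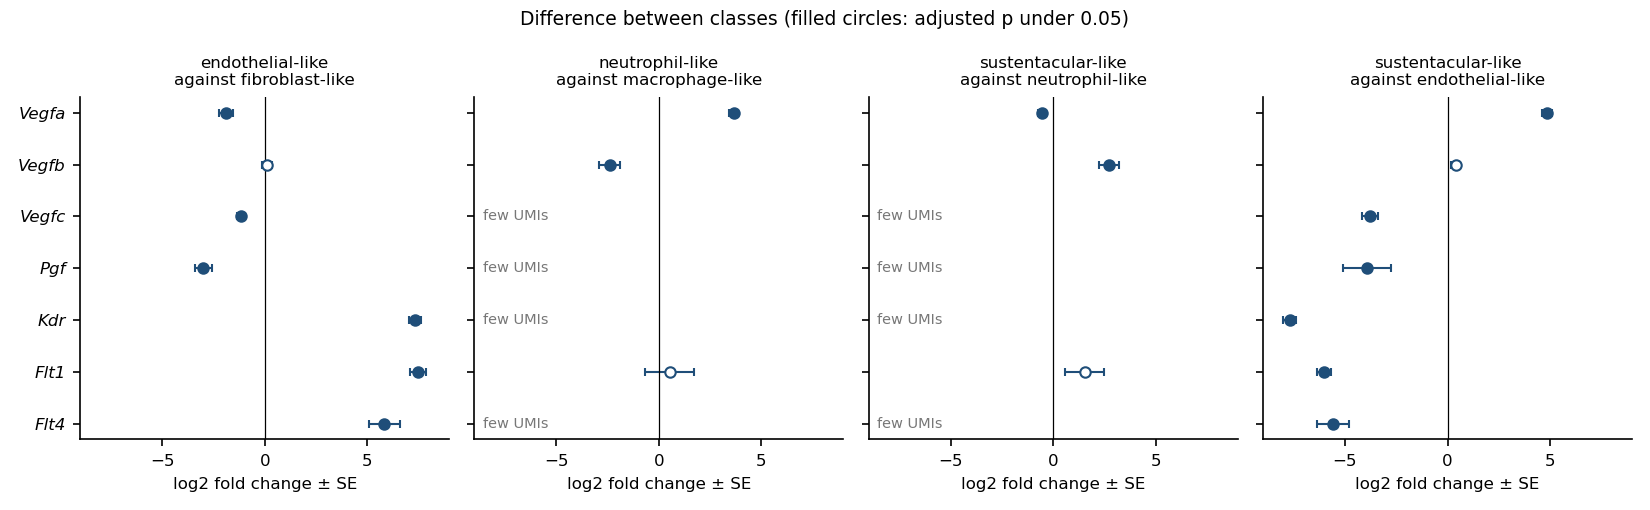
Log2 fold change ± SE of each gene in the 4 main comparisons (edgeR, 2 libraries per class). Filled circles passed an adjusted p of 0.05, and genes with fewer than 10 UMIs in both classes or none in 1 of them are written as few UMIs. Kdr and Flt1 lie at 7.34 and 7.48 between endothelial-like and fibroblast-like cells, and Vegfa at 3.64 between neutrophil-like and macrophage-like cells.

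The second comparison set the myeloid classes side by side. *Vegfa*, at 187 against 13.5 CPM, was higher in neutrophil-like than in macrophage-like cells by 3.64 ± 0.23 (adjusted p = 1.00e-10), and both libraries of the former lay above both of the latter. *Vegfb* went the other way, lower by 2.40 ± 0.51 on the log2 scale (adjusted p = 0.000969) with 8 UMIs in neutrophil-like cells. *Kdr* was at 0 against 37 UMIs in neutrophil-like cells, at least 2.06-fold lower (adjusted p = 0.0142) when 3 counts over the group are taken as the floor, and the call was lost without neutrophil-like library 1 (adjusted p = 0.105) or library 2 (adjusted p = 0.0967). *Flt1*, with 4 against 15 UMIs, did not pass (adjusted p = 0.792). *Vegfc* and *Flt4* had 3 UMIs or fewer in each class and *Pgf* had none. Of the 7 genes, 1 was higher, 2 lower and 4 did not pass, and of all genes 32% passed, 14% higher and 17.9% lower.

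Macrophage-like cells were not uniform. In the cluster led by *Mmp12* and *Ccl4* (702 cells) *Vegfa* stood at 16.1 and 26.2 CPM, in that led by *Ccl8*, *Ccl7* and *Mrc1* (491 cells) at 2.41 and 3.54 CPM (8 UMIs), and in the shallow cluster led by *Aif1* (493 cells) 3 UMIs were found. The planned test divided these cells by *Mrc1*, the mannose receptor of resident macrophages. *Vegfa* was lower in the 684 cells with an *Mrc1* UMI (6.86 and 8.38 CPM) than in the 1002 without (14.7 and 24.2 CPM), by 1.55 ± 0.33 on the log2 scale (edgeR, adjusted p = 0.00837). Cells with *Mrc1* were deeper, with medians of 5273.5 and 3494 UMIs. Of the 7 genes, 4 had enough UMIs to be tested here and *Vegfa* alone passed, against 9.27% of 11455 genes tested (4.3% higher and 4.97% lower). The call was lost with DESeq2 (adjusted p = 0.0689) and without *Mrc1* negative library 2 (adjusted p = 0.0546), and it stood with cells of at least 1000 UMIs. *Vegfb* (0.29 ± 0.24) and *Kdr* (-0.12 ± 0.48) did not pass.

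Neutrophil-like cells formed a cluster of 415 cells and one of 338 cells led by *Siglecf* and *Mmp9*. By fold the former was led by *Camp* and *Ngp*, but of all 753 cells only 1 held these genes without *Il1r2* or *Cxcl2* and 7 held both kinds. *Vegfa* stood at 184 and 192 CPM in the former and at 133 and 238 CPM in the latter, so the ranges overlapped. These clusters were chosen after their values were seen and were not tested.

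Of the 25 pathway genes, 0 were higher and 7 lower in neutrophil-like than in macrophage-like cells (edgeR), with a median of -1.97 (-0.44 with DESeq2) beside -0.19 over all genes. *Nrp1* was absent from neutrophil-like cells and counted at 89.4 and 93.0 CPM in macrophage-like cells, at least 37.6-fold lower (adjusted p = 9.19e-10). The adaptor of *Kdr* signalling *Shb* was at least 4.06-fold and *Pdgfc* at least 1.72-fold lower. *Nrp2* did not pass (-0.74 ± 0.34, adjusted p = 0.110) and *Vegfd* had no UMI in either class. In contrast, 16 of the 23 hypoxia genes were higher in neutrophil-like cells and 0 lower, with a median of 1.29. The largest were *Egln3*, a hypoxia-induced prolyl hydroxylase that targets the factors for decay (5.15 ± 0.43, 74.4 and 55.7 against 2.15 and 1.08 CPM), the glucose transporter *Slc2a1* (3.71 ± 0.20) and *Ankrd37* (3.63 ± 0.34). *Hif1a* was higher by 1.71 ± 0.19 (adjusted p = 2.79e-07), and *Epas1*, at 14 against 41 UMIs, did not pass (0.88 ± 0.47, adjusted p = 0.171). Library size scaling gave 18 higher and 0 lower, and DESeq2 16 and 0.

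The third comparison concerned the classes with most *Vegfa*, the sustentacular cells that support the neurons of the epithelium and the neutrophils. *Vegfa* was lower in sustentacular-like cells by 0.56 ± 0.19 on the log2 scale (edgeR, adjusted p = 0.0212), but this small difference depended on the scaling. The CPM ratio was 0.869 with a counting interval of 0.745 to 1.02, and the call was lost with library size alone (-0.20, adjusted p = 0.459), with DESeq2 (-0.62, adjusted p = 0.0650), without sustentacular-like library 1 (adjusted p = 0.192) and without neutrophil-like library 2 (adjusted p = 0.242). All genes had a median of 0.30 in this comparison. *Vegfb* was higher in sustentacular-like cells by 2.73 ± 0.50 (adjusted p = 0.000148). *Flt1* did not pass (1.54 ± 0.95, adjusted p = 0.210) and turned to -0.55 without sustentacular-like library 2, and without library 1 it was 2.42 (adjusted p = 0.00248). The other 4 genes had 8 UMIs or fewer in each class. Of the 7 genes, 1 was higher and 1 lower, and of all genes 43.5% passed, 24.5% higher and 19% lower.

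The hypoxia list moved in both directions between these classes. In sustentacular-like cells 12 of 23 were higher and 5 lower, with a median of 0.59, beside 0.30 over all genes. Carbonic anhydrase *Car9* (5.31 ± 0.34, 210 and 206 against 3.10 and 5.07 CPM), the vasodilator peptide *Adm* (4.73 ± 0.39, 138 and 140 against 4.65 and 3.38 CPM) and *Ndrg1* (3.54 ± 0.22) were higher, as was *Epas1* (2.53 ± 0.34, 84.1 against 11.5 CPM). *Arnt* (-1.77 ± 0.42), *Pfkfb3* (-1.37 ± 0.25), *Mxi1* (-1.04 ± 0.19) and *Hif1a* (-0.74 ± 0.18, 136 against 177 CPM) were lower. With library size alone, 14 were higher and 3 lower. Of the 25 pathway genes, 7 were higher and 1 lower, with a median of 1.86 that was 0.39 with DESeq2. *Nrp1* (at least 3.03-fold), *Shb* (at least 5.02-fold), *Pdgfc* (at least 3.74-fold) and *Pdgfd* (at least 3.97-fold) were higher, each with no UMI in neutrophil-like cells. *Nrp2* was lower (-1.45 ± 0.44), at 20 against 15 UMIs, and was not called with library size alone, where 0 genes were lower. *Vegfd* held 4 UMIs in sustentacular-like and none in neutrophil-like cells.

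**Figure D4:**
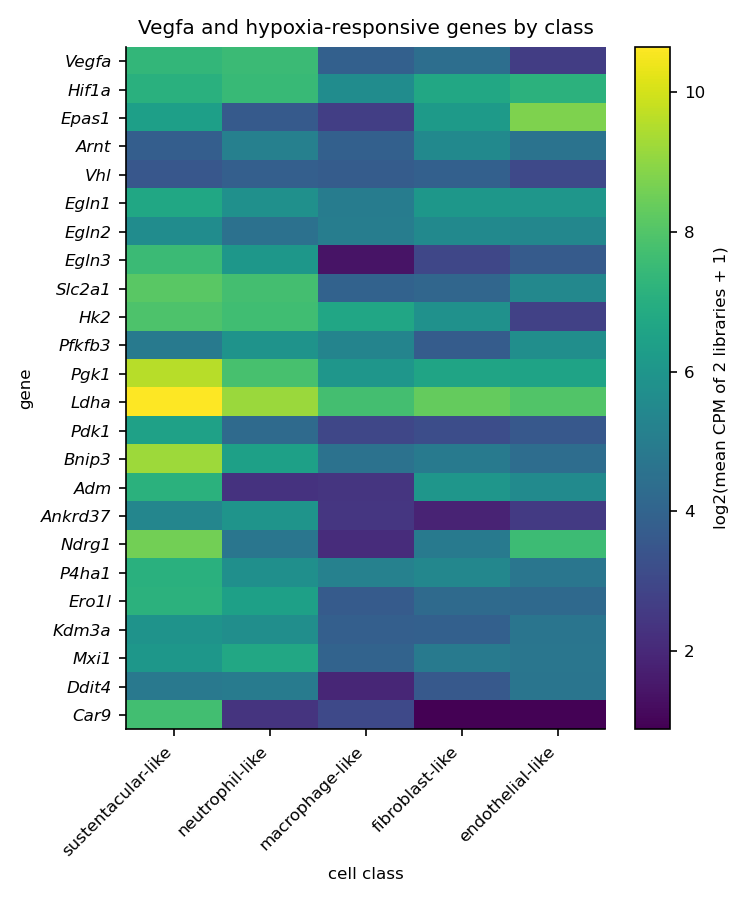
Level of Vegfa and of the 23 genes of the hypoxia list in 5 cell classes, as log2(mean CPM of 2 libraries + 1), a scale that compresses low values. Vegfa is at 162 CPM in sustentacular-like and 187 CPM in neutrophil-like cells, and Epas1 is at 427 CPM in endothelial-like cells.

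The last comparison set the epithelial class against the endothelium. *Vegfa*, at 162 against 5.23 CPM, was higher in sustentacular-like cells by 4.86 ± 0.26 (edgeR, adjusted p = 3.22e-12). The other ligands and the receptors were not. *Kdr* was lower by 7.71 ± 0.33 on the log2 scale (adjusted p = 4.54e-13), *Flt1* by 6.02 ± 0.35 (adjusted p = 1.16e-11), *Flt4* by 5.59 ± 0.78 (1 against 84 UMIs, adjusted p = 6.34e-06) and *Vegfc* by 3.78 ± 0.38 (adjusted p = 9.32e-08). *Pgf*, with 1 against 26 UMIs, was lower (-3.91 ± 1.16, adjusted p = 0.0103), but not without sustentacular-like library 2 (adjusted p = 0.0728) or endothelial-like library 1 (adjusted p = 0.157). *Vegfb* did not pass (0.39 ± 0.24, adjusted p = 0.200), and it did when the library was a block in the fit (adjusted p = 0.0412), with a mitochondrial limit of 10% (0.65, adjusted p = 0.0127) and without endothelial-like library 1 (0.75, adjusted p = 0.0323). Of the 7 genes, 1 was higher and 5 lower, and of all genes 44% passed, 21.5% higher and 22.5% lower.

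Of the 25 pathway genes, 3 were higher and 17 lower in sustentacular-like cells, with a median of -5.01, and with DESeq2 1 was higher and 15 lower. Among the lower ones, *Angpt2* (at least 36.9-fold), *Aplnr* (at least 33.4-fold) and *Dll4* (at least 26.5-fold), genes of vessel growth, had no UMI in sustentacular-like cells. *Nrp1* (-5.16 ± 0.23) and *Nrp2* (-5.93 ± 0.22) were also lower, and *Vegfd*, with 4 against 21 UMIs, did not pass (adjusted p = 0.0677). The 3 that were higher were the ligands *Pdgfa* (1.48 ± 0.19) and *Pdgfc* (1.50 ± 0.49) and the adaptor *Gipc1* (0.67 ± 0.22). Of the 23 hypoxia genes, 16 were higher and 3 lower (median 1.54). The largest were *Car9* (7.63 ± 0.28), *Hk2* (5.30 ± 0.31, 259 and 228 against 7.14 and 4.69 CPM) and the mitophagy gene *Bnip3* (4.83 ± 0.19), and the lower ones were *Epas1* (-2.41 ± 0.18), *Arnt* (-0.95 ± 0.34) and *Pfkfb3* (-0.86 ± 0.20). *Hif1a* did not pass (-0.13 ± 0.16, adjusted p = 0.560).

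The other pairs of classes, taken from the same fit, show which neighbours in each order differ. Of all genes, 49.6% passed between sustentacular-like and macrophage-like cells, 42.7% between sustentacular-like and fibroblast-like cells, 44.7% between endothelial-like and macrophage-like cells, 42.1% between endothelial-like and neutrophil-like cells, 50.2% between fibroblast-like and macrophage-like cells and 46.7% between neutrophil-like and fibroblast-like cells. For *Vegfa*, sustentacular-like cells exceeded fibroblast-like cells by 2.97 ± 0.21 (edgeR, adjusted p = 4.04e-10), fibroblast-like and macrophage-like cells did not differ beyond the test (0.11 ± 0.26, adjusted p = 0.759, but 0.99 and adjusted p = 0.000280 with a mitochondrial limit of 10%), and endothelial-like cells lay below macrophage-like cells by 1.78 ± 0.33 on the log2 scale (adjusted p = 0.000140). For *Vegfb*, no neighbours among sustentacular-like, endothelial-like, fibroblast-like and macrophage-like cells differed beyond the test, with adjusted p between 0.126 and 0.851 over the pairs of these classes. With the library as a block, sustentacular-like cells exceeded fibroblast-like cells in *Vegfb* (adjusted p = 0.0114). With a mitochondrial limit of 10%, *Vegfb* in fibroblast-like cells exceeded that in macrophage-like cells by 0.56 (adjusted p = 0.0328), and with library size alone sustentacular-like cells exceeded macrophage-like cells by 0.83 (adjusted p = 0.00462). Neutrophil-like cells lay below fibroblast-like cells in *Vegfb* by 2.25 ± 0.53 on the log2 scale (adjusted p = 0.00142). *Vegfc* was higher in endothelial-like than in macrophage-like cells by 5.65 ± 0.44 (adjusted p = 1.77e-09). *Pgf* was at least 101-fold higher in fibroblast-like than in macrophage-like cells (adjusted p = 5.55e-08), and between endothelial-like and neutrophil-like cells it did not pass (adjusted p = 0.0767) but did in 5 of 17 alternatives, the library as a block among them (adjusted p = 0.0177).

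For the receptors, *Kdr* was higher in endothelial-like than in macrophage-like cells by 5.44 ± 0.24 (edgeR, adjusted p = 4.49e-13). Macrophage-like cells in turn exceeded fibroblast-like cells, whose level was lower by 1.90 ± 0.54 on the log2 scale (adjusted p = 0.00576), and sustentacular-like cells, whose level was lower by 2.27 ± 0.61 (adjusted p = 0.00406). Without sustentacular-like library 1 the last difference did not pass (-1.27, adjusted p = 0.0783). *Flt1* in sustentacular-like cells exceeded that in macrophage-like cells by 2.06 ± 0.61 (adjusted p = 0.00808), a difference of -0.031 without sustentacular-like library 2 and 0.38 with a mitochondrial limit of 10%. It did not pass with DESeq2 (adjusted p = 0.0732), with only these 2 classes in the fit (adjusted p = 0.0590) or without macrophage-like library 2 (adjusted p = 0.0881). Against fibroblast-like cells *Flt1* did not pass (adjusted p = 0.0514) but did in 6 of 16 alternatives, the library as a block among them (adjusted p = 0.00625), and it was -0.63 without sustentacular-like library 2. *Flt4* was at least 39.2-fold higher in endothelial-like than in macrophage-like cells (adjusted p = 4.66e-07).

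Endothelial-like cells were divided by *Sele* and *Selp*. In the 473 cells with a UMI of either gene, adhesion molecules of activated and venous endothelium, *Vegfc* was lower than in the 271 cells without, at 21.5 and 24.9 against 51.9 and 60.9 CPM, by 1.16 ± 0.25 on the log2 scale (edgeR, adjusted p = 0.0180). It was the only one of the 7 genes that passed, against 2.69% of 11673 genes tested (1.42% higher and 1.27% lower). The call was lost with DESeq2 (adjusted p = 0.238), without the first library of the negative cells (adjusted p = 0.136) and without the second (adjusted p = 0.121). *Flt1*, at 651 and 748 against 921 and 1037 CPM, did not pass (-0.37 ± 0.15, adjusted p = 0.329), nor did *Flt4* (13.6 and 9.95 against 35.7 and 25.1 CPM, -1.26 ± 0.36, adjusted p = 0.0844), although neither pair of ranges overlapped. With the library as a block both passed (adjusted p = 0.000343 and 0.00669), as did *Pgf* (adjusted p = 0.0405), whose 16 UMIs in the negative cells came from 1 cell. *Kdr* did not pass (-0.08 ± 0.18, adjusted p = 0.943), with a CPM ratio of 0.875 and a counting interval of 0.779 to 0.985. *Vegfa*, from 14 UMIs on each side, did not pass either (-1.68 ± 0.61, adjusted p = 0.231). Its ranges, 2.10 and 4.52 against 9.72 and 14.3 CPM, did not overlap. *Vegfb* did not pass (0.47 ± 0.32, adjusted p = 0.662). Cells with *Sele* or *Selp* were deeper, with medians of 6841 and 3624 UMIs.

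Endothelial-like cells were also clustered on their own, again without the 7 genes, and are described without a test. Subcluster 2 (139 cells) had arterial (*Gja4*, *Gja5*, *Sema3g*, *Bmx*, *Fbln5*), capillary (*Rgcc*, *Car4*, *Gpihbp1*) and tip cell markers (*Esm1*) raised. The arterial genes *Hey1* and *Efnb2* were not among its raised markers. Of the subclusters it had the highest levels of *Flt1* (1283 and 1446 CPM), *Kdr* (425 and 394 CPM), *Flt4* (38.4 and 35.1 CPM) and *Vegfc* (74.5 and 80.9 CPM). Subcluster 1 (189 cells), led by *Prnd*, *Tacr1* and *Apln*, had capillary (*Car4*, *Gpihbp1*, *Kit*), tip cell (*Esm1*, *Apln*) and venous markers (*Vwf*, *Ackr1*) raised and held *Flt1* at 756 and 885 CPM, *Kdr* at 339 and 354 CPM and *Vegfc* at 11.3 and 19.7 CPM. Subcluster 0 (298 cells) had the venous markers *Selp*, *Nr2f2* and *Vcam1* raised but also 7 fibroblast markers, and held *Flt1* at 545 and 640 CPM, *Kdr* at 254 and 251 CPM and *Flt4* at 7.05 and 9.02 CPM. *Flt1* and *Kdr* did not overlap between these 3 subclusters. Subclusters 3 (97 cells) and 4 (21 cells) were led by keratin and by immune genes, with 15 and 5 called doublets, and without them the comparisons of endothelial-like cells kept their calls, while *Flt4* passed between cells with and without *Sele* or *Selp* (adjusted p = 0.0418).

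**Figure D5:**
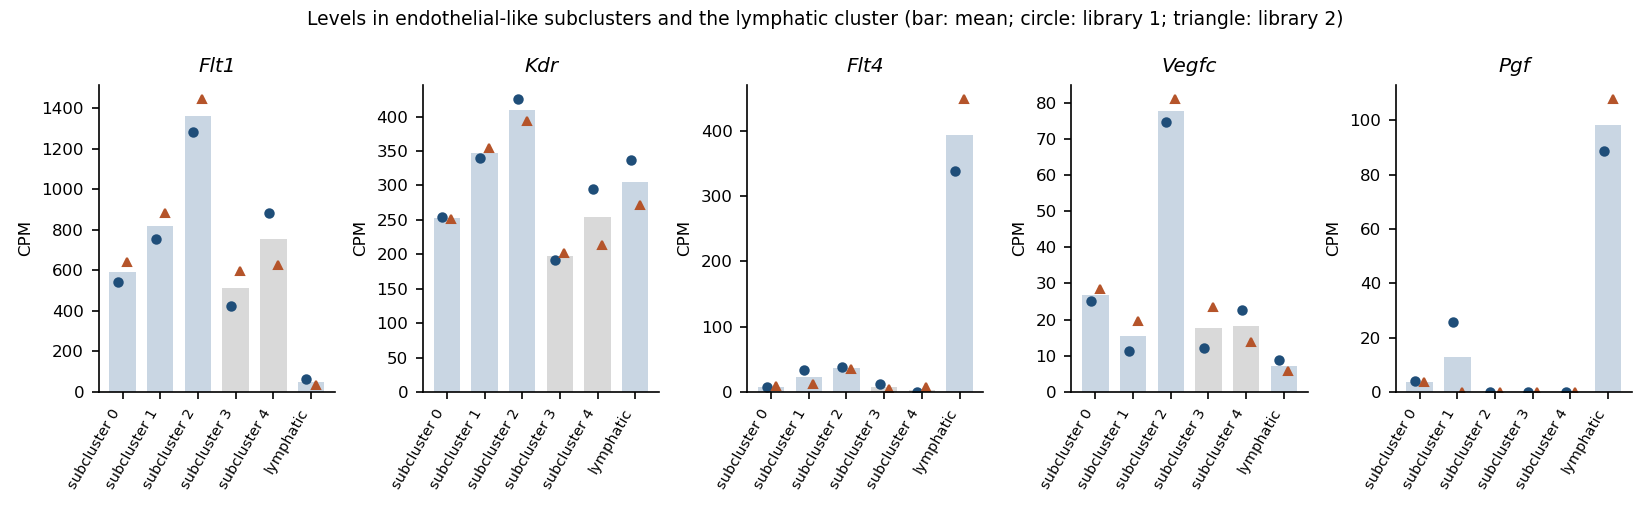
Levels of 5 genes (CPM, linear axes that differ between panels) in subclusters of endothelial-like cells and in the lymphatic cluster. Bars are means, circles library 1 and triangles library 2, and grey bars mark subclusters led by keratin or immune genes. Flt1 reaches 1283 and 1446 CPM in subcluster 2, and Flt4 337 and 448 CPM in the lymphatic cluster.

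The genes whose mean levels over the 18 classes were most like each of the 7 (Pearson's r of log2(CPM + 1), a description over classes that share 2 libraries and differ in depth) were found for protein-coding genes with at least 50 UMIs. For *Kdr* they were *Myct1* (r = 0.96), *Cdh5*, the cadherin of endothelial junctions (r = 0.95), and *Ccm2l* (r = 0.95). For *Flt4* they were *Hoxd8* (r = 0.98), *Mmrn1* (r = 0.98) and *Prox1* (r = 0.96), and for *Pgf* *Slc10a6* (r = 0.96), *Piezo2* (r = 0.95) and *Lama4* (r = 0.93). *Flt1* had weaker likenesses, *Plcb1* (r = 0.83), *Mall* (r = 0.78) and *Slco1a4* (r = 0.75). For *Vegfa* they were *Cstb* (r = 0.84), *Trib1* (r = 0.81) and *Chka* (r = 0.80), for *Vegfb* *Arl2* (r = 0.89), *Cbx5* (r = 0.88) and *Mesd* (r = 0.87), and for *Vegfc* *Fam180a* (r = 0.88), *Enpep* (r = 0.86) and *Aox1* (r = 0.86).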

How the data were processed

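Counts of UMIs per gene and cell barcode were used as the authors deposited them, as whole numbers. Per the labels' processing notes, reads were converted with bcl2fastq and counted with Cell Ranger 4 on mm10, and Seurat 3.2.3 was used, and no source used here tells whether depth was evened out between libraries. The library was read from the number after each barcode's dash. Of the barcode sequences, 33 occurred in both libraries, 3 among kept cells. Cells that passed the study's limits (200 to 9000 genes, up to 5% mitochondrial UMIs) were grouped by Seurat 5.3.0, run in R 4.3.3 (2000 variable genes, of which 20 members and list genes were left out, 30 principal components, resolution 0.8). Names were assigned cluster by cluster from the marker lists, and each named cluster had at least 3 markers of its list raised 4-fold. Some clusters that met this count stayed unnamed, such as one of 76 cells with 7 T cell markers raised. Doublets were called with Scrublet in scanpy 1.11.5 (rate 8%) and kept. No cluster was named mural, so the planned class was replaced by fibroblast-like cells, which also carried mural markers.

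UMIs were summed per library and class and tested with edgeR 4.0.16 (TMM, quasi-likelihood), all 5 classes in 1 fit, for genes with at least 10 UMIs over the sums, with Benjamini-Hochberg adjustment over all genes at 0.05. All 7 genes passed this filter in the fit of classes. The SE is the log2 fold change divided by the square root of F. Fold bounds use 3 counts over the group. Classes of the same number share a library, so the pairing comes from the capture. Deviations of same-numbered sums correlated at 0.024 to 0.125 over 15451 genes, which are not replicates. Libraries differed by more than sampling noise (chi-square per degree of freedom 3.17 to 4.48). Named genes were all 7, plus *Nrp1*, *Nrp2*, *Vegfd*, *Hif1a* and *Epas1*, and in each main comparison up to 3 genes of each list and direction with the largest change past the threshold in both libraries. For likeness they were the 3 genes with the highest r. Clusters, cell counts and UMIs of single cells named beside these were chosen after their values were seen. The genes, lists and tests were chosen with earlier results of these data known. Gene positions are from GENCODE on GRCm38. DESeq2 1.42.0 was an alternative. Scripts were tested on simulated data.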

Additional observations from a re-analysis of the deposited data

Results flagged for a closer look

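Barcodes outside the filter entered no comparison under the main settings. In these 13492 barcodes, 8113 of them at over 5% and up to 10% mitochondrial UMIs, *Vegfa* stood at 93.5 CPM (81.0 and 106 CPM in the 2 libraries), above the 41.8 CPM of all kept cells. *Vegfb* stood at 50.1 CPM, against 35.5 CPM in kept cells. Both were flagged as a signal in data that the comparisons under the main settings did not use. The receptors were lower there, *Kdr* at 3.34 against 19.9 CPM and *Flt1* at 21.5 against 53.7 CPM. The alternative limit of 10% let barcodes at over 5% and up to 10% enter the classes. With it, the sustentacular-like class grew from 283 to 1380 cells, 278 of them shared. The part of mitochondrial share in these levels was not tested.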

How the results depend on the processing

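Alternatives changed 1 choice at a time. For the tests these were DESeq2, no filter or filterByExpr, library size without TMM, the library as a block and 2 classes per fit. For the cells they were a mitochondrial limit of 10%, doublets left out and cells of at least 1000 UMIs. For the clustering they were a resolution of 0.5 and the members and lists kept. Each library of a compared class was also left out in turn, and it was kept for the other classes. The lymphatic cluster added to endothelial-like cells and subclusters of other types left out were alternatives added after seeing the data. So were the stromal cluster with more mural markers taken alone and the minimum of 1000 UMIs for the splits. Of the fold changes of the 7 genes in the main comparisons and splits, 435 stayed on their side of the threshold with their direction, 14 passed newly, 13 no longer passed and 11 changed sign. The planned division of neutrophil-like cells was not run, because 1 cell fell on one side, and depth limits *Pgf*, *Flt4* and *Kdr* where a class held few UMIs. The cause of the changes listed here was not tested.

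With DESeq2, *Vegfa* was not called between sustentacular-like and neutrophil-like cells (-0.62), *Vegfc* between endothelial-like cells with and without *Sele* or *Selp* (-1.17) and *Vegfa* by *Mrc1* (-1.59). The genes called fell from 314 to 142 by *Sele* or *Selp* and from 1062 to 654 by *Mrc1*. With library size alone, *Vegfa* between sustentacular-like and neutrophil-like cells was -0.20 and not called, *Kdr* by *Mrc1* turned to 0.12, and 204 genes were called by *Sele* or *Selp*. *Vegfb* turned to 0.37 between endothelial-like and macrophage-like cells and to 0.29 between fibroblast-like and macrophage-like cells. The share of higher calls rose from 43.9% to 55.5% with DESeq2 between neutrophil-like and macrophage-like cells, and from 56.3% to 67.0% with library size between sustentacular-like and neutrophil-like cells. It also moved with library size for endothelial-like cells against macrophage-like (51.0% to 70.5%) and neutrophil-like cells (56.8% to 66.9%), and against macrophage-like cells for sustentacular-like (50.2% to 69.3%) and fibroblast-like cells (53.3% to 71.0%).

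Without a filter on low counts, *Flt1* passed between sustentacular-like and neutrophil-like cells (1.55), as did *Pgf* (-2.29) and *Flt4* (-1.24) by *Sele* or *Selp*, where 486 genes were called. With filterByExpr *Flt4* passed there (-1.27), and without subclusters of other cell types too (-1.31). With the library as a block, *Vegfb* passed between sustentacular-like and endothelial-like cells (0.39), and *Pgf* (-2.07), *Flt1* (-0.37) and *Flt4* (-1.24) by *Sele* or *Selp*. The block called 842 genes by *Sele* or *Selp* and 1995 by *Mrc1*. Beside these and the pairs given in the report, the block changed no other call of the 7 genes.

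With a mitochondrial limit of 10%, *Vegfb* turned to -0.73 between endothelial-like and fibroblast-like cells and passed, and it was 0.65 between sustentacular-like and endothelial-like cells and passed. *Flt1* turned to -0.11 between sustentacular-like and neutrophil-like cells and to 0.15 between neutrophil-like and fibroblast-like cells. *Vegfb* turned to -0.081 between sustentacular-like and fibroblast-like cells and to 0.56 between fibroblast-like and macrophage-like cells. Against the stromal cluster with more mural markers alone, *Vegfb* in endothelial-like cells was -0.039, and with the lymphatic cluster added it was 0.0064 against macrophage-like cells.

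Each library of a compared class was left out in turn for that class alone, and the log2 fold changes ranged as follows. Between endothelial-like and fibroblast-like cells *Vegfb* ranged from -0.27 to 0.47. Between neutrophil-like and macrophage-like cells *Kdr* ranged from -6.89 to -6.56 and *Flt1* from -0.057 to 1.43. Between sustentacular-like and neutrophil-like cells *Vegfa* ranged from -0.72 to -0.37 and *Flt1* from -0.55 to 2.42. Between sustentacular-like and endothelial-like cells *Vegfb* ranged from 0.088 to 0.75, passing without endothelial-like library 1, and *Pgf* from -6.34 to -2.45. *Flt1* in sustentacular-like cells ranged from -0.031 to 2.97 against macrophage-like and from -0.63 to 2.31 against fibroblast-like cells. Against macrophage-like cells, *Vegfb* ranged from -0.42 to 0.24 in endothelial-like and from -0.54 to 0.12 in fibroblast-like cells, and *Vegfa* from -0.19 to 0.40 in the latter. *Flt1* in neutrophil-like against fibroblast-like cells ranged from -0.44 to 0.30. By *Sele* or *Selp*, *Vegfc* ranged from -1.24 to -1.08, *Flt4* from -1.55 to -0.95, *Kdr* from -0.29 to 0.18 and *Pgf* from -3.30 to 4.99, with 77 to 333 genes called, the lowest without the first library of the negative cells. By *Mrc1*, *Vegfa* ranged from -1.85 to -1.21 and *Kdr* from -0.50 to 0.42. A class left with 1 library was assumed to vary like the others.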

Other observations

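Some values lay outside the classes compared. *Vegfa* was counted at 64.3 and 96.8 CPM in an unnamed cluster of 289 deep cells (median 28546 UMIs) led by vomeronasal receptor genes. *Flt1* was found at 22.2 and 94.0 CPM in ciliated-like cells, from 25 UMIs in 16 of 154 cells, a class in which 11 cells were called doublets, and at 29.2 and 34.6 CPM in non-sensory epithelial-like cells, where 17.7% of cells held a UMI. *Kdr* in dendritic-like cells stood at 6.50 and 4.92 CPM, close to macrophage-like cells. In lymphatic endothelial-like cells, *Flt4* was held by 90.9% of cells with *Pgf* and 88% of those without, and in fibroblast-like cells *Vegfc* was held by 24.7% of cells with *Pgf* and 36.2% of those without. *Kcnj8*, a potassium channel subunit on the mural list, had a UMI in 30.6% of lymphatic endothelial-like cells, while *Rgs5*, *Abcc9* and *Higd1b* had none there, and 0 of 36 cells allow a share of cells with a UMI of up to 8.33% (3 of 36).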
